A study of Mus musculus with 15 samples.

Results

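The chemokine and interleukin genes described here are Ccl2, Ccl5, Cxcl1, Cxcl10, Cxcl12, Cxcl16, Cx3cl1, Il1b and Il18, 9 of the 19602 genes in a table of mouse kidney RNA, taken by gene symbol. All 9 were found, and 7 had enough reads to be tested. Whole kidneys came from 4 groups of mice aged 6 to 8 weeks, both sexes, taken 14 days after 1 intraperitoneal injection. The groups were G3 Tert-/- mice given folic acid at 125 mg/kg (G3 folic acid, n = 4), G3 Tert-/- mice given sodium bicarbonate vehicle (G3 vehicle, n = 4), Tert+/+ mice given the same folic acid dose (WT folic acid, n = 3) and Tert+/+ mice given vehicle (WT vehicle, n = 4). G3 is generation 3 of breeding without the telomerase gene Tert, in which telomeres shorten from one generation to the next. Folic acid at this dose injures the kidney tubule, and the comparisons ask how kidneys with and without telomerase respond to it. The sources used here do not name the strain or the deleted part of Tert.

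Chemokines are small secreted proteins that draw white blood cells along a gradient, and they are sorted into CC, CXC and CX3C classes by the spacing of their first cysteines. In an injured kidney they are made by tubule cells, endothelium, fibroblasts and the white cells that have already arrived. Il1b and Il18 encode interleukins of the IL-1 family, which are made as inactive precursors and cut to their active form by caspase-1 in the inflammasome. RNA level therefore does not give the amount of active cytokine. In whole tissue, fewer cells of a type and less RNA per cell cannot be told apart.

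RefSeq promoters of build GRCm38.p6 were matched for 6 of the 9 genes, Cxcl1, Cxcl10, Cxcl12, Cx3cl1, Il1b and Il18. The 250 bases before the start are shown for Cxcl10 and Cxcl1, which carry matches to the NF-kB motif, and for Il18, the gene whose RNA was called between groups. Capitals mark every match on either strand to the NF-kB motif, the interferon response core (GAAA, any 2 bases and GAAA again), the AP-1 motif TGANTCA or the TATA box TATAAA.
Cxcl10 (chr5:92348890-92349139, minus strand): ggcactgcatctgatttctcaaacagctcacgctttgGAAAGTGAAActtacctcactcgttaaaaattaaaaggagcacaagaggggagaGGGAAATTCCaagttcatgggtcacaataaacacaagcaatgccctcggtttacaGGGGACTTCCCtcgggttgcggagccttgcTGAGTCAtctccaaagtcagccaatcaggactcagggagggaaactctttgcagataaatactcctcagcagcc
Cxcl1 (chr5:90890995-90891244, plus strand): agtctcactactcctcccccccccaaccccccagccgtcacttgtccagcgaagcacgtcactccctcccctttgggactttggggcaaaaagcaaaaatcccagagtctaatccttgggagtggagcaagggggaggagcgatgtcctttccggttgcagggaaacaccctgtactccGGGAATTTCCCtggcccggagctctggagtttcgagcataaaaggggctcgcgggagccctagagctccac
Il18 (chr9:50554450-50554699, plus strand): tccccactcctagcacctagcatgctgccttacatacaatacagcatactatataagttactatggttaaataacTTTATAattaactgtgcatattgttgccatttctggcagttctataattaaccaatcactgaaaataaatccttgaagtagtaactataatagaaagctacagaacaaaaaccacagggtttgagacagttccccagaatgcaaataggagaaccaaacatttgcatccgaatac

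The Cxcl10 window held an interferon response core 213 to 204 bases before the start, NF-kB matches at 159 to 150 and 104 to 94, where 2 matches overlap, and an AP-1 match at 74 to 68. The Cxcl1 window held 2 overlapping NF-kB matches at 71 to 61 and none of the other motifs. In the Il18 window the only match was TATAAA on the other strand, 175 to 170 bases before the start. Among 32851 promoter windows of this length 7.25% held the NF-kB motif, 2.98% the interferon response core, 6.75% the AP-1 motif and 12.4% the TATA box. A TATA box also matched at 31 to 26 bases before the start of Il1b and directly before that of Cx3cl1, and no motif matched in the Cxcl12 window. The starts here are those of the RefSeq promoters. For Cx3cl1, Cxcl1 and Il18 they differ from the gene starts in the annotation given below, and the Cx3cl1 match lies inside the annotated gene. These matches describe letters only.

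Values below are normalised counts, that is reads per gene divided by 1 size factor per library, and libraries are numbered within a group by accession order only. Each library held 5014684 to 6609307 reads in genes, and 1 read was worth 0.895 to 1.13 normalised counts. The labelled sex went against Xist and Y-linked RNA in 10 of 15 libraries, and in another 2, G3 folic acid 4 and WT vehicle 2, both kinds of RNA were present. Only 3 libraries went with their label. The cause of this mismatch was not tested, and genotype and treatment are taken here as labelled. The summed RNA of Ddx3y, Kdm5d, Eif2s3y and Uty, as a share of its highest library (the Y share), was 0.0173 to 0.800 in G3 folic acid, 0.00113 to 0.00873 in G3 vehicle, 0.0110 to 0.0340 in WT folic acid and 0.327 to 1 in WT vehicle. Sex and group can therefore not be told apart fully. WT folic acid and G3 vehicle each lay below WT vehicle in Y share without overlap. In these comparisons with WT vehicle, Y share and group cannot be told apart. G3 folic acid also lay above G3 vehicle in Y share without overlap, with G3 folic acid 2 closest to it at 0.0173. The folic acid effect in G3 and the Y share can therefore not be told apart fully either. The numbers in the sample titles fall into 3 series that nearly repeat the groups, and the labels do not say what they mark. WT folic acid 1 also stood apart, with 23.0% of its reads in the gene Gm42418 against 4.85% to 8.15% elsewhere. No library repeated another within sampling noise. The closest pairs were G3 vehicle 3 and 4 and WT folic acid 2 and 3. Their mean chi-square per gene on the reads was 2.7 and 2.81, against 6.60 for the next pair. Kidney markers were present in every library, with all 8 proximal tubule and all 6 distal nephron and collecting duct markers tested.

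Il18 was the only one of the 9 genes that limma called in any comparison, and its change after folic acid differed between the genotypes. Each of its calls was lost with the Y share or the title series as a term. In WT kidneys Il18 RNA fell after folic acid, to less than every WT vehicle library. In G3 kidneys it was not called, with a higher mean after folic acid. Cxcl16, a chemokine anchored in the membrane, lay above every vehicle library after folic acid in both genotypes, but did not pass the test over all genes in either. Cx3cl1, Ccl5, Cxcl10, Il1b, Cxcl1 and Ccl2 had their highest values in G3 folic acid libraries. Il18 rested on 213 reads in all, against 5707 for Cxcl12, 4049 for Cxcl16, 2417 for Cx3cl1, 414 for Ccl5, 197 for Cxcl10, 178 for Il1b, 75 for Cxcl1 and 29 for Ccl2.

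**Figure D1:**
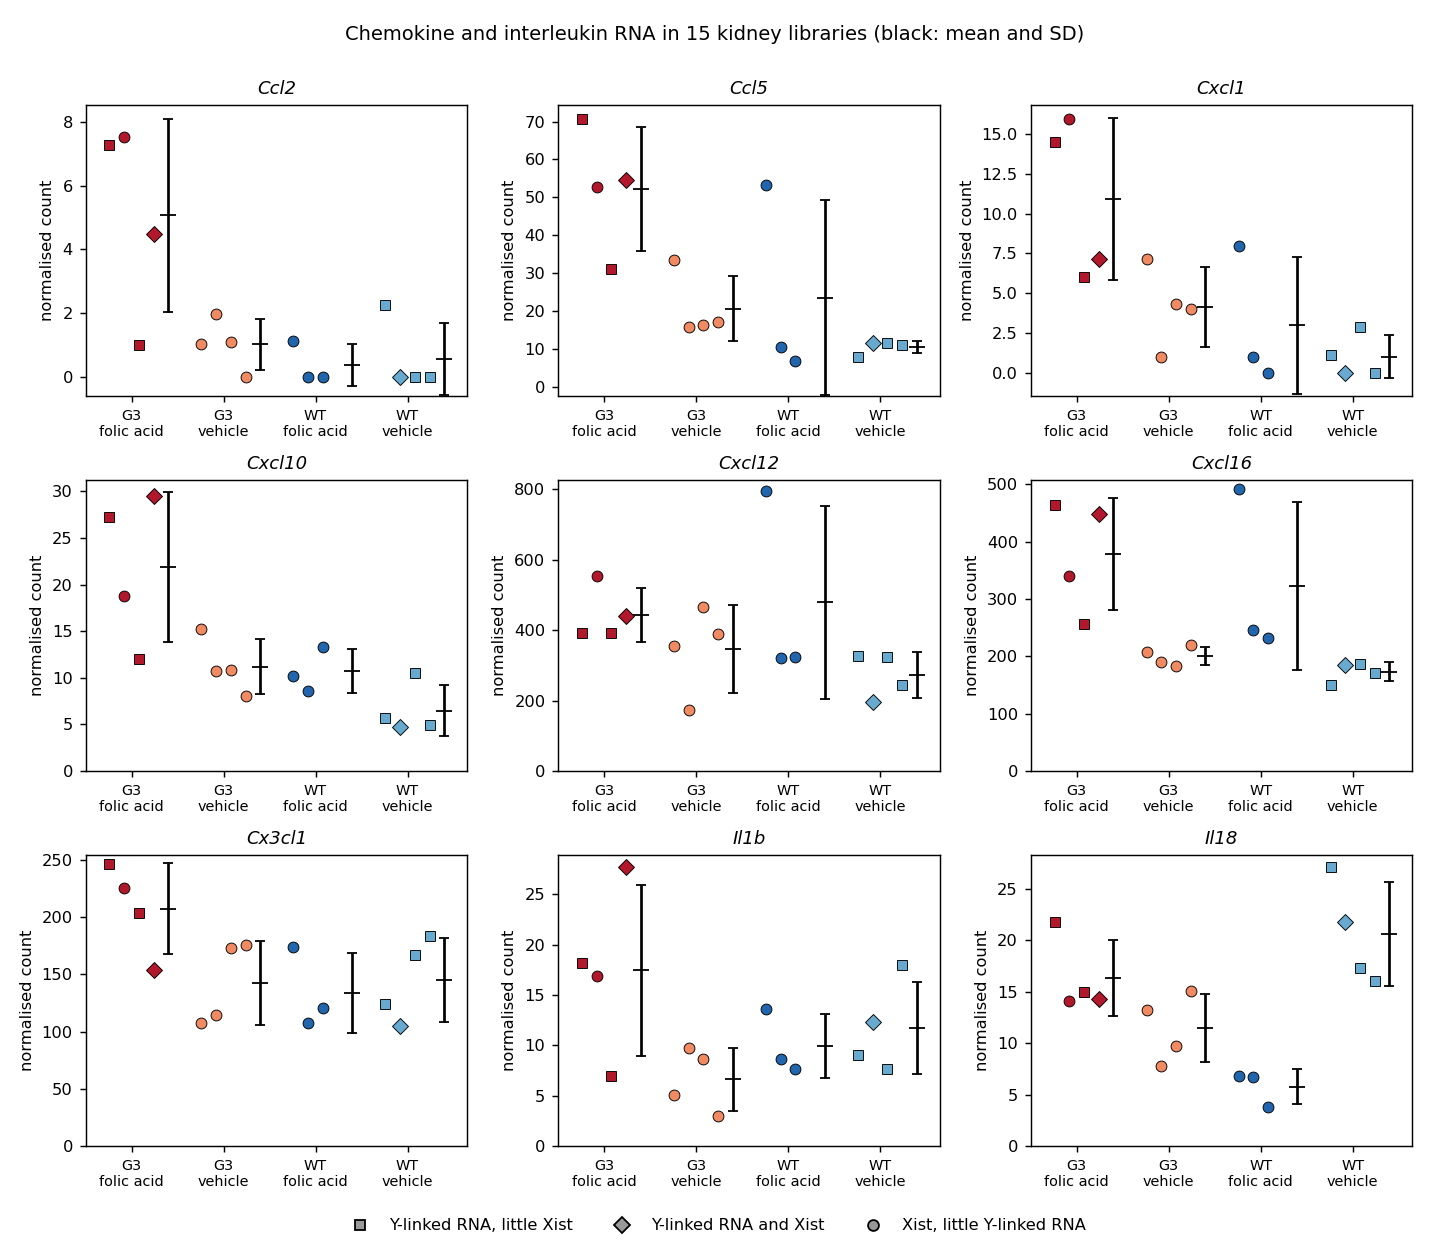
Normalised counts of the 9 genes (y axis, linear) in each of the 15 libraries, by group (x axis), with the group mean and SD in black. Marker shape gives the Xist and Y-linked RNA of the library. Il18 lies between 3.81 and 6.81 in WT folic acid and between 16.0 and 27.1 in WT vehicle, and Cxcl16 lies above the vehicle libraries after folic acid in both genotypes.

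Among the 7 genes tested, limma with Benjamini-Hochberg adjustment over all 14651 tested genes called 0 after folic acid in G3, where 0.273% of all tested genes were called. At an unadjusted p under 0.05 it was 5 of 7 (13.8% of all tested genes). On the same reads edgeR called 0 (0.341% of all tested genes) and DESeq2 called 1, Cxcl16 (2.64%). Their median difference was log2 0.86, beside -0.01 over all tested genes. In WT limma called 1 of 7, Il18, as lower, where 5.06% of all tested genes were called and 2.89% were called as lower. At an unadjusted p under 0.05 it was 3 of 7 (23.1%), and the median difference was log2 0.57, beside 0.01. G3 against WT after folic acid gave 1 call, Il18, as higher, where 2.30% of all tested genes were called and 0.717% were called as higher, with 4 of 7 at an unadjusted p under 0.05 (20.4%). G3 against WT after vehicle gave 0 calls in limma, edgeR and DESeq2 (2.90%, 2.79% and 5.37% of all tested genes), with 2 of 7 at an unadjusted p under 0.05 (17.9%). The difference between the 2 folic acid effects gave 1 call, Il18, as higher (3.82% of all tested genes were called and 2.16% as higher), with 2 of 7 at an unadjusted p under 0.05 (16.8%). These comparisons share libraries, so they are not independent of each other.

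**Figure D2:**
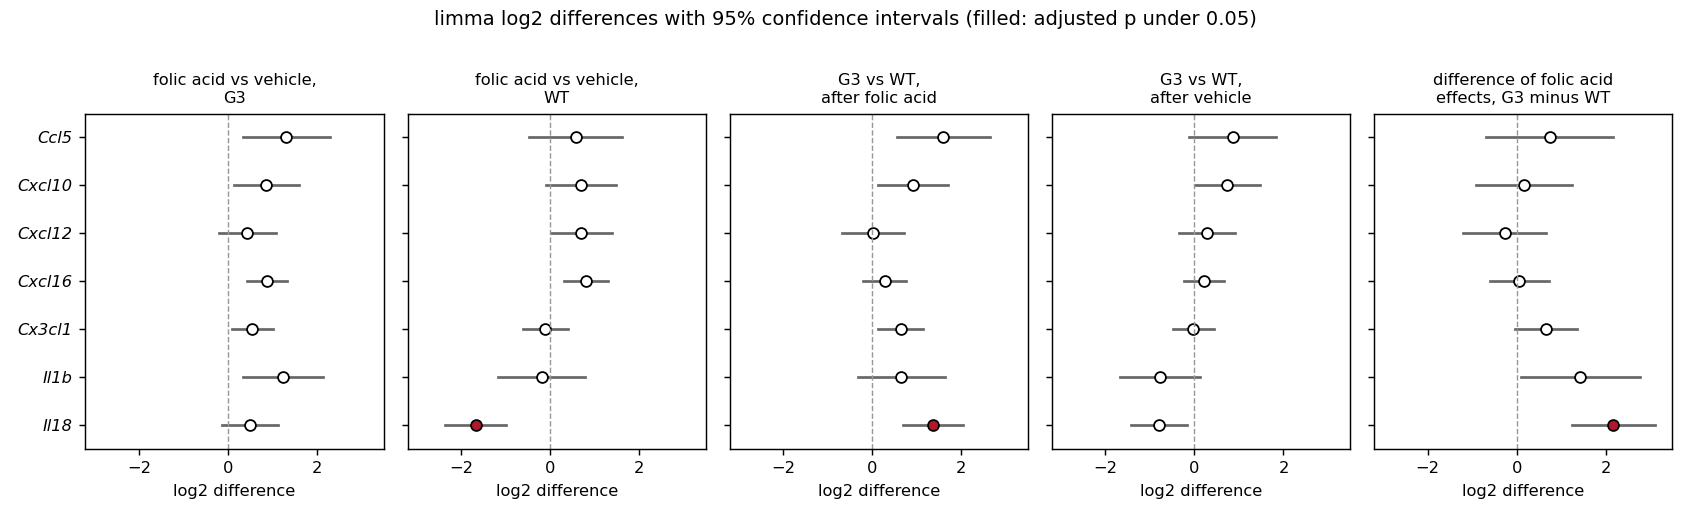
Difference on the log2(normalised count + 1) scale (x axis) with its 95% confidence interval for the 7 tested genes (y axis) in 5 comparisons, from limma with group terms only. The filled points mark adjusted p under 0.05: Il18 in WT at -1.67, in G3 against WT after folic acid at 1.36 and in the difference of effects at 2.17.

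Ccl2, a CC chemokine that brings in monocytes through the receptor Ccr2, was close to the limit of detection. It had 8, 8, 1 and 5 reads in the G3 folic acid libraries, against 1, 2, 1 and 0 reads in G3 vehicle. In WT it had 1, 0 and 0 reads after folic acid, against 2, 0, 0 and 0 reads after vehicle. Of the 29 Ccl2 reads in all, 22 came from G3 folic acid kidneys (exact Poisson 95% interval 13.8 to 33.3, counting error only) and 4 from G3 vehicle (1.09 to 10.2), and the single G3 folic acid 3 library was as low as the vehicle libraries. Ccl2 had fewer than 10 normalised counts in every library and was left out of the test. When all 19602 genes were fitted, the difference in G3 was log2 1.49 (SE 0.58, limma adjusted p = 0.280).

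Ccl5, a CC chemokine made largely by T and NK cells, was 70.8, 52.6, 31.0 and 54.6 in G3 folic acid, against 33.6, 15.6, 16.2 and 17.0 in G3 vehicle. The groups overlapped through G3 folic acid 3 and G3 vehicle 1, and the 2.49-fold difference did not pass (log2 1.31, SE 0.46, limma adjusted p = 0.199). In WT Ccl5 was 53.3, 10.6 and 6.67 after folic acid, against 7.92, 11.4, 11.5 and 10.99 after vehicle. WT folic acid 1 alone was high, and the other two lay within or below the vehicle range (log2 0.57, SE 0.50, limma adjusted p = 0.522). Without WT folic acid 1 the WT difference turned to log2 -0.27 (limma adjusted p = 0.770), and the G3 difference, of the same size, passed with the smaller spread that was left (SE 0.30, limma adjusted p = 0.0296). G3 against WT after folic acid then passed too (log2 2.44, limma adjusted p = 0.00789, against 0.0928 with all libraries). Leaving out WT folic acid 1 also raised the limma calls over all 14651 tested genes. They went from 40 to 364 in G3 and from 337 to 615 in G3 against WT after folic acid. After vehicle every G3 library lay above every WT library, as for 4.29% of all tested genes, but the difference was not called (log2 0.86, limma adjusted p = 0.348). The group means ran from 52.2 (SD 16.4, n = 4) in G3 folic acid through 23.5 (SD 25.9, n = 3) in WT folic acid and 20.6 (SD 8.65, n = 4) in G3 vehicle to 10.4 (SD 1.70, n = 4) in WT vehicle.

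Cxcl1, a CXC chemokine that attracts neutrophils through Cxcr2, had 16, 17, 6 and 8 reads in G3 folic acid libraries, against 7, 1, 4 and 4 reads in G3 vehicle. In WT it had 7, 1 and 0 reads after folic acid, against 1, 0, 3 and 0 reads after vehicle. The high libraries were G3 folic acid 1 and 2, the groups of each pair overlapped, and only 2 libraries reached 10 normalised counts, so that Cxcl1 was not tested. In the fit of all 19602 genes Cxcl1 differed by log2 1.28 after folic acid in G3 (SE 0.65, limma adjusted p = 0.436) and by log2 2.09 in G3 against WT after folic acid (SE 0.70, limma adjusted p = 0.133). Summed RNA of the 4 neutrophil markers tested (S100a8, S100a9, Retnlg and Csf3r) was 39.5 to 93.5 in G3 folic acid, 100.2 to 146 in G3 vehicle, 72.6 to 157 in WT folic acid and 173 to 233 in WT vehicle, with limma calling 0 of 4 after folic acid in G3 (3 at an unadjusted p under 0.05, edgeR 0, DESeq2 1) and in WT (2 at an unadjusted p under 0.05, edgeR 0, DESeq2 0). Of all tested genes 13.8% in G3 and 23.1% in WT were at an unadjusted p under 0.05. The shares called by edgeR were 0.341% and 5.16%, and by DESeq2 2.64% and 8.58%. In G3 against WT after folic acid limma called 1 of the 4, S100a9, as lower (log2 -1.36, limma adjusted p = 0.0391, with the Y share as a term 0.171). In that comparison 2.30% of all tested genes were called.

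Cxcl10, which interferon induces and which attracts activated T cells through Cxcr3, was 27.2, 18.8, 12.0 and 29.5 in G3 folic acid, against 15.3, 10.7, 10.8 and 8.02 in G3 vehicle. G3 folic acid 3 again fell inside the vehicle range, and the 1.82-fold difference was not called (log2 0.86, SE 0.35, limma adjusted p = 0.268). In WT Cxcl10 was 10.2, 8.64 and 13.3 after folic acid, against 5.65, 4.74, 10.6 and 4.995 after vehicle. WT vehicle 3 lay within the folic acid range, and the difference was log2 0.69 (SE 0.37, limma adjusted p = 0.278). After folic acid G3 and WT overlapped between G3 folic acid 3 and WT folic acid 3 (log2 0.91, SE 0.37, limma adjusted p = 0.184). WT folic acid 1 was not the highest of its group for Cxcl10, in contrast to the other 8 genes, though for Ccl2 and Il18 the margin was small.

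Cxcl12, the stromal and endothelial chemokine that acts through Cxcr4 and is also bound by Ackr3, was well covered, with 177 to 702 reads per library. It was 392, 554, 392 and 440.2 in G3 folic acid, against 356, 173, 466 and 389.9 in G3 vehicle. The ranges overlapped widely (log2 0.43, SE 0.30, limma adjusted p = 0.573). In WT Cxcl12 was 796, 321 and 323 after folic acid, against 327, 195, 324 and 246 after vehicle. WT folic acid 1 was the highest of all 15 libraries, while the other two fell inside the vehicle range. With all libraries the WT difference was log2 0.70 (SE 0.33, limma adjusted p = 0.205), and without WT folic acid 1 it was 0.27 (limma adjusted p = 0.699). Fibroblast and pericyte markers stood out in the same library, with a sum of 10068 against 1638 to 1779 in WT folic acid 2 and 3 and 1098 to 1560.0 in WT vehicle; their part in the Cxcl12 value was not tested.

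Cxcl16 is held in the membrane by a mucin-like stalk until the protease ADAM10 releases it, and it attracts T cells that carry Cxcr6. It was 465, 341, 257 and 449 in G3 folic acid, against 208, 190.5, 184 and 219 in G3 vehicle. The lowest folic acid library was above the highest vehicle library, as for 3.98% of all tested genes, and the 1.83-fold difference missed the threshold (95% interval 1.34 to 2.51, log2 0.87, SE 0.21, limma adjusted p = 0.0744). In WT Cxcl16 was 491, 246 and 232 after folic acid, against 150.4, 185, 186 and 172 after vehicle. Again the groups did not overlap (9.31% of all tested genes), with a 1.75-fold difference (95% interval 1.25 to 2.46, log2 0.81, SE 0.23, limma adjusted p = 0.0524). WT folic acid 2 and 3 lay closer to the vehicle libraries than WT folic acid 1 did, and without WT folic acid 1 the WT difference was log2 0.46 (limma adjusted p = 0.245). Leaving out 1 library brought Cxcl16 past the threshold in G3 without G3 folic acid 3 (limma adjusted p = 0.0373) or WT folic acid 1 (0.00853), and in WT without G3 folic acid 3 (0.0345) or WT vehicle 2 (0.0485). Calls over all tested genes rose too, from 40 to 364 in G3 without WT folic acid 1. In WT they rose from 741 to 1309 without WT vehicle 2. On the same reads DESeq2 called Cxcl16 in G3 (adjusted p = 0.00991) and in WT (adjusted p = 0.0104), and edgeR called it in WT only (adjusted p = 0.0381, against 0.0672 in G3). In WT DESeq2 called 8.58% and edgeR 5.16% of all tested genes. After folic acid the genotypes overlapped widely (G3 against WT log2 0.28, SE 0.23, limma adjusted p = 0.535). The 2 effects differed by log2 0.06 (SE 0.32, 95% interval -0.60 to 0.73, limma adjusted p = 0.949). With the Y share as a term the differences were log2 0.93 in G3 (limma adjusted p = 0.299) and 0.71 in WT (limma adjusted p = 0.981), fits that called 0.0614% and 0.00683% of all tested genes.

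Cx3cl1, or fractalkine, the CX3C chemokine carried on endothelial and tubule cell membranes, binds Cx3cr1 on monocytes and macrophages. It was 247, 225, 204 and 154 in G3 folic acid, against 108, 114, 173 and 175 in G3 vehicle. G3 folic acid 4 lay inside the vehicle range, and the 1.47-fold difference was not called (log2 0.55, SE 0.22, limma adjusted p = 0.266). In WT Cx3cl1 was 174, 107 and 121 after folic acid, against 124, 105, 167 and 184 after vehicle, with full overlap (log2 -0.11, SE 0.24, limma adjusted p = 0.830). The difference between the effects was log2 0.66 (SE 0.33, 95% interval -0.03 to 1.35, limma adjusted p = 0.318), and with the Y share as a term it was log2 0.031 (limma adjusted p = 0.9997). After folic acid G3 exceeded WT by log2 0.64 without passing (SE 0.24, limma adjusted p = 0.150), with G3 folic acid 4 below WT folic acid 1. The sign of the WT difference turned with the Y share as a term, to 0.29, and without WT folic acid 2, to 0.03.

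Il1b, the main secreted agonist of the IL-1 receptor and made mostly by myeloid cells, had 3 to 31 reads per library. It was 18.2, 16.9, 6.99 and 27.7 in G3 folic acid, against 5.08, 9.77, 8.66 and 3.01 in G3 vehicle. Of the 4 G3 folic acid libraries 3 lay above all G3 vehicle libraries and G3 folic acid 3 lay among them, with a 2.36-fold difference that was not called (log2 1.24, SE 0.43, limma adjusted p = 0.195). In WT Il1b was 13.6, 8.64 and 7.63 after folic acid, against 9.05, 12.3, 7.68 and 18.0 after vehicle, and the groups overlapped (log2 -0.19, SE 0.46, limma adjusted p = 0.849). The difference between the 2 effects was log2 1.43 (SE 0.63, limma adjusted p = 0.253). G3 vehicle had the lowest mean of the groups, at 6.63 (SD 3.13, n = 4), against 11.8 (SD 4.59, n = 4) in WT vehicle, without a call (log2 -0.78, SE 0.43, limma adjusted p = 0.361). With the title series as a term, which leaves 1 vehicle library of each genotype in the shared series, this difference was log2 -2.24 (limma adjusted p = 0.719), and the folic acid effect in G3 was log2 2.06 (limma adjusted p = 0.99996). The difference between the Il1b effects was log2 2.04 in that fit (limma adjusted p = 0.456) and 2.22 with the Y share as a term (limma adjusted p = 0.9997).

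Il18 is made by tubule cells as well as by macrophages and drives interferon gamma release from T and NK cells. It had 4 to 24 reads per library. In WT it was 6.81, 6.72 and 3.81 after folic acid, against 27.1, 21.8, 17.3 and 16.0 after vehicle. All 3 folic acid libraries lay below all 4 vehicle libraries, as for 10.6% of all tested genes, and Il18 fell 3.19-fold (log2 -1.67, SE 0.32, 95% interval -2.36 to -0.99, limma adjusted p = 0.0132). In G3 Il18 was 21.8, 14.1, 15.0 and 14.3 after folic acid, against 13.2, 7.82, 9.74 and 15.0 after vehicle. These groups overlapped through G3 vehicle 4, with a difference of log2 0.49 (SE 0.30, limma adjusted p = 0.507). The effect in G3 was higher than that in WT by log2 2.17 (SE 0.44, 95% interval 1.23 to 3.10, limma adjusted p = 0.0122).

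After folic acid every G3 library had more Il18 RNA than every WT library, as for 7.84% of all tested genes, and the difference was 2.57-fold (log2 1.36, SE 0.32, limma adjusted p = 0.0384). After vehicle every G3 library had less than every WT library (6.72% of all tested genes), which did not pass (log2 -0.80, SE 0.30, limma adjusted p = 0.163). The group means were 16.3 (SD 3.68, n = 4) in G3 folic acid, 11.5 (SD 3.27, n = 4) in G3 vehicle, 5.78 (SD 1.70, n = 3) in WT folic acid and 20.5 (SD 5.05, n = 4) in WT vehicle. In order of level these are WT vehicle, G3 folic acid, G3 vehicle and WT folic acid, and each neighbouring pair overlapped except G3 vehicle and WT folic acid.

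Il18 was also set beside the Y-linked RNA of each library. Where Y-linked RNA was low, Il18 was 14.1 in G3 folic acid 2, 7.82 to 15.0 in the 4 G3 vehicle libraries and 3.81 to 6.81 in the 3 WT folic acid libraries. In libraries with Y-linked RNA and little Xist the values were 21.8 and 15.0 in G3 folic acid 1 and 3, and 16.0 to 27.1 in WT vehicle 1, 3 and 4. The mixed libraries had 14.3 (G3 folic acid 4) and 21.8 (WT vehicle 2). Within G3 folic acid, library 2 with low Y-linked RNA and library 3 with high Y-linked RNA lay close, at 14.1 and 15.0. With the Y share as a term the WT difference was log2 -1.51 (limma adjusted p = 0.981) and the difference between effects 1.90 (limma adjusted p = 0.9997), where 0.00683% and 0.0137% of all tested genes were called. Both kept their direction and lost their call, as did G3 against WT after folic acid (log2 1.27, limma adjusted p = 0.301). With labelled sex as a term the difference between effects was log2 2.23 (limma adjusted p = 0.0588), and the other two stayed called. Without the 2 libraries of mixed RNA both stayed called, at log2 -1.64 (limma adjusted p = 0.0166) and 2.18 (limma adjusted p = 0.0191). G3 against WT after folic acid lost its call without G3 folic acid 1, 3 or 4 or WT folic acid 2 or 3, with limma adjusted p from 0.0508 to 0.149. In the title series that holds all WT folic acid libraries and WT vehicle 1, 2 and 3, the WT difference was log2 -1.78, and with the series as a term it was no longer called (limma adjusted p = 0.0577). That term also ended the calls of G3 against WT after folic acid (log2 1.78, limma adjusted p = 0.999) and of the difference between effects (log2 1.87, limma adjusted p = 0.322). In G3 a value within a series rests on the 4 folic acid libraries and 1 vehicle library, with log2 0.09, and after vehicle on 1 library of each genotype, with log2 -0.08.

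**Figure D3:**
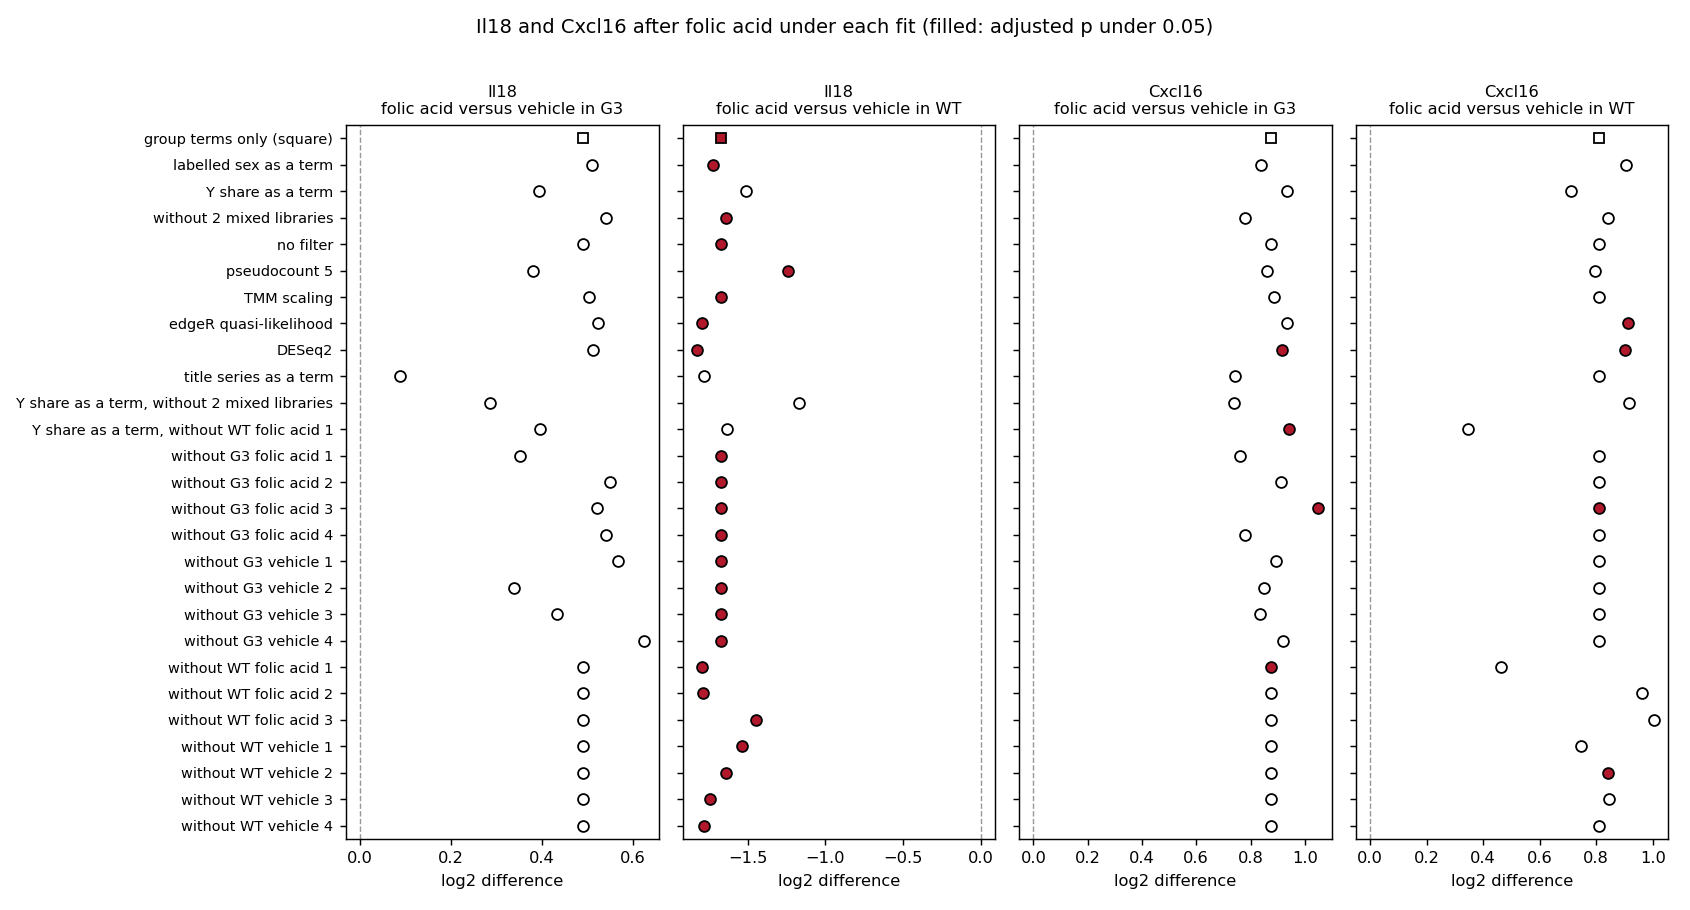
Difference after folic acid on the log2 scale (x axis, a scale for each panel) for Il18 and Cxcl16 in G3 and WT under each fit (y axis), with filled points at adjusted p under 0.05. Il18 in WT stays between -1.83 and -1.17 and loses its call with the Y share or the title series as a term, while Cxcl16 in WT is lowest, at 0.35 and 0.46, without WT folic acid 1.

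The genes that receive and process these signals were taken from lists. Of 23 chemokine receptor genes 8 were tested, and limma and edgeR each called 0 after folic acid in G3 and 0 in WT, with 4 and 3 at an unadjusted p under 0.05 in limma, beside 13.8% (G3) and 23.1% (WT) of all tested genes. DESeq2 called 1 in G3 (2.64% of all tested genes) and 1 in WT (8.58%). Cx3cr1, the fractalkine receptor, averaged 306 (SD 130, n = 4) in G3 folic acid and 69.4 (SD 26.0, n = 4) in G3 vehicle. This 4.22-fold difference (limma adjusted p = 0.0737) was without overlap, as for 3.98% of all tested genes. Ccr2, the Ccl2 receptor, averaged 129.8 in G3 folic acid and 30.2 in G3 vehicle (3.81-fold, limma adjusted p = 0.150). In WT the non-signalling receptor Ccrl2 was 1.86-fold higher after folic acid (limma adjusted p = 0.188) and the Cxcl12 scavenger Ackr3 1.43-fold higher (limma adjusted p = 0.205).

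Of 29 other chemokines 15 were tested. After folic acid limma called 0 of them in G3 (5 at an unadjusted p under 0.05, edgeR 0, DESeq2 1) and 0 in WT (6 at an unadjusted p under 0.05, edgeR 1, DESeq2 2). Of all tested genes 13.8% in G3 and 23.1% in WT were at an unadjusted p under 0.05, edgeR called 0.341% and 5.16%, and DESeq2 called 2.64% and 8.58%. Their median was log2 1.12 in G3 and 0.78 in WT, beside -0.01 and 0.01 over all tested genes. Ccl6, a myeloid CC chemokine, averaged 124 in G3 folic acid and 29.2 in G3 vehicle (3.70-fold, limma adjusted p = 0.122). Cxcl14 averaged 104 and 45.5 in the same groups (2.35-fold, limma adjusted p = 0.154), and 114 (SD 96.1, n = 3) in WT folic acid against 33.9 (SD 9.36, n = 4) in WT vehicle (2.68-fold, limma adjusted p = 0.0604). The epithelial chemokine Ccl28 was 5.43-fold higher in G3 (limma adjusted p = 0.172). The interferon-induced Cxcl9 was 1.93-fold higher in WT (limma adjusted p = 0.138) and Ccl27a 1.61-fold higher (limma adjusted p = 0.119), both without overlap (9.31% of all tested genes).

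Among 22 genes of IL-1 and IL-18 signalling 15 were tested. Limma and edgeR called 0 after folic acid in each genotype, with 2 of 15 at an unadjusted p under 0.05 in limma in each, beside 13.8% (G3) and 23.1% (WT) of all tested genes. DESeq2 called 2 in G3 (2.64% of all tested genes) and 1 in WT (8.58%). Il18r1, the chain that binds IL-18, averaged 23.1 (SD 10.9, n = 4) in G3 folic acid and 2.81 (SD 0.994, n = 4) in G3 vehicle. This 5.80-fold difference (limma adjusted p = 0.134) was without overlap, as for 3.98% of all tested genes. Il18bp, the secreted decoy that captures IL-18, averaged 37.5 (SD 13.7, n = 3) in WT folic acid and 16.8 (SD 3.79, n = 4) in WT vehicle. Its 2.12-fold difference (limma adjusted p = 0.104) was also without overlap, as for 9.31% of all tested genes. The receptor kinase Irak1 averaged 458 (SD 11.4, n = 3) in WT folic acid and 591 (SD 18.5, n = 4) in WT vehicle (0.776-fold, limma adjusted p = 0.0725). Irak4 in G3 (1.21-fold, limma adjusted p = 0.363), the pore protein Gsdmd in G3 (1.99-fold, limma adjusted p = 0.443) and Il33 in WT (1.94-fold, limma adjusted p = 0.278) were further from the threshold.

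Of 8 proteases that act on chemokines 5 were tested, with 0 limma calls after folic acid and 3 at an unadjusted p under 0.05 in each genotype. Of all tested genes 13.8% in G3 and 23.1% in WT were at that p. On these 5 edgeR called 0 in G3 (0.341% of all tested genes) and 1 in WT (5.16%), and DESeq2 1 in G3 (2.64%) and 2 in WT (8.58%). Mmp14, a protease of the cell membrane, was 2.88-fold higher in G3 (limma adjusted p = 0.0756) and 2.44-fold higher in WT (limma adjusted p = 0.0752). The values for Mmp2, which cuts Cxcl12, were 3.83-fold in G3 (limma adjusted p = 0.126) and 2.64-fold in WT (limma adjusted p = 0.183). The spread in WT folic acid was wide, with Mmp14 at 168 (SD 155, n = 3) and Mmp2 at 98.2 (SD 126, n = 3). Summed RNA of the 6 proteases found was 1152 in WT folic acid 1, against 575 and 581 in WT folic acid 2 and 3. Adam10, the sheddase of Cxcl16 and Cx3cl1, was 1.28-fold higher in WT (limma adjusted p = 0.121), and Adam17 1.33-fold higher in G3 (limma adjusted p = 0.323). Of 22 other cytokines 6 were tested and limma called 1 after folic acid in G3, Il34, a ligand of the macrophage receptor Csf1r, where 0.273% of all tested genes were called, and 0 in WT (4 at an unadjusted p under 0.05, edgeR 1, DESeq2 1, beside 23.1%, 5.16% and 8.58% of all tested genes). Il34 rose 3.90-fold in G3 (limma adjusted p = 0.0252, with the Y share as a term 0.285), averaging 302 (SD 80.0, n = 4) after folic acid and 75.9 (SD 17.6, n = 4) after vehicle. In WT Il34 averaged 157 (SD 121, n = 3) after folic acid and 237 (SD 59.2, n = 4) after vehicle (limma adjusted p = 0.174). The Il34 effects differed by log2 2.77 (limma adjusted p = 0.00506, with the Y share 0.9997). After vehicle Il34 was lower in G3 than in WT (log2 -1.62, limma adjusted p = 0.0145, with the Y share 0.805). Csf1, the other Csf1r ligand, was 2.29-fold higher in WT (limma adjusted p = 0.0521) and 1.61-fold higher in G3 (limma adjusted p = 0.344). The remaining named genes were Il15 in G3 at 0.771-fold (limma adjusted p = 0.620) and Il16 in WT at 3.45-fold (limma adjusted p = 0.176).

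The sum of 10 macrophage markers was 1318 to 3341 in G3 folic acid, 798 to 1235 in G3 vehicle, 1339 to 3882 in WT folic acid and 1060.0 to 1471 in WT vehicle, and Fcgr1 had no read in any G3 vehicle library. After folic acid in G3, limma called 2 of the 10 as higher (0.273% of all tested genes were called), Fcgr1 (limma adjusted p = 0.000604, with the Y share as a term 0.00505) and Itgam (limma adjusted p = 0.0417, with the Y share 0.236). At an unadjusted p under 0.05 it was 9 of 10 (13.8% of all tested genes), and edgeR called 2 (0.341%) and DESeq2 9 (2.64%). In WT limma called 0 of the 10, with 3 at an unadjusted p under 0.05 (23.1% of all tested genes), while edgeR called 1 (5.16%) and DESeq2 3 (8.58%). Fcgr1 averaged 28.1 in G3 folic acid, 0 in G3 vehicle, 10.1 in WT folic acid and 4.07 in WT vehicle. Itgam averaged 28.3, 4.55, 12.7 and 4.08 in the same order. Both entered the test through folic acid libraries, mainly in G3, so their calls in G3 are a description only. After vehicle Fcgr1 was lower in G3 than in WT (log2 -2.17, limma adjusted p = 0.0371, with the Y share 0.803), where 2.90% of all tested genes were called. G3 folic acid 3 was the lowest of its group in the macrophage sum, in tubular injury markers and in Ccl2, Ccl5, Cxcl1, Cxcl10, Cxcl16 and Il1b. WT folic acid 1 was the highest of its group in the macrophage sum and in 8 of the 9 genes. For Il18 this was 6.81 against 6.72 in WT folic acid 2, from 6 and 7 reads. For Ccl2 it was 1 read against 0 in the others. The share of all genes highest in WT folic acid 1 was not counted. For T and NK cells 3 of 10 markers were tested, and the sum of the 7 analysed was 19.98 to 73.3 in G3 folic acid, 10.8 to 40.1 in G3 vehicle, 26.7 to 80.5 in WT folic acid and 18.1 to 29.4 in WT vehicle. The sum of 8 proximal tubule markers was 31924 to 46787 in G3 folic acid, 44317 to 61824 in G3 vehicle, 31293 to 71213 in WT folic acid and 41771 to 68362 in WT vehicle. The part of these cell types in the chemokine values was not tested.

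**Figure D4:**
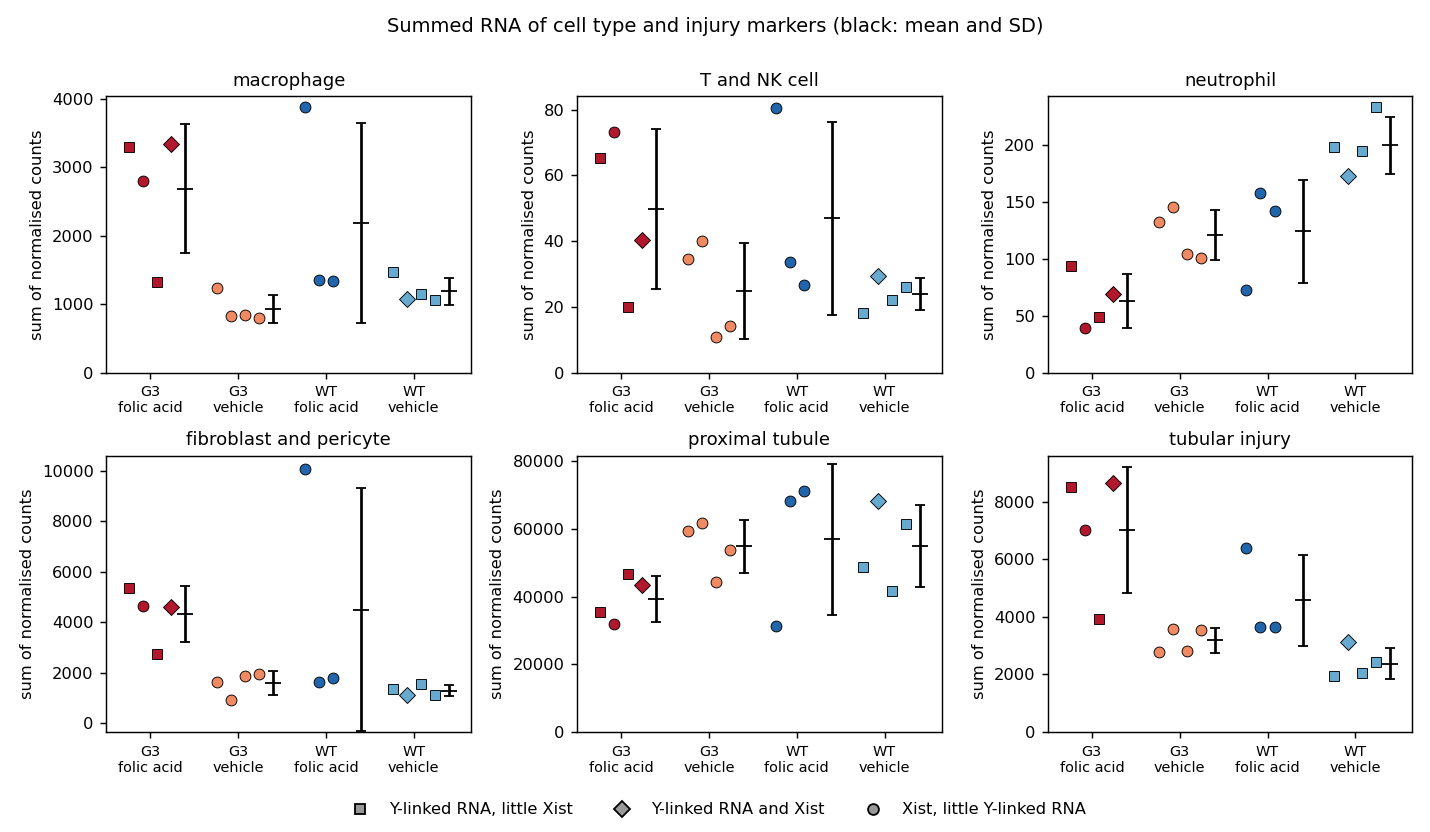
Sum of normalised counts (y axis, linear) of 6 fixed marker lists in each library, by group (x axis), with the group mean and SD in black and the marker shapes for Xist and Y-linked RNA. The macrophage sum runs from 1318 to 3341 in G3 folic acid with G3 folic acid 3 lowest, and reaches 3882 in WT folic acid 1.

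The genes whose levels over the 15 libraries were ordered most like those of Cxcl16 were Mmp14 and H2-DMa, with a Spearman coefficient of 0.93 each. For Ccl5 they were Calcoco1 (0.94) and Slfn2 (0.94), for Cxcl12 Serping1 (0.96) and Plec (0.96), and for Cx3cl1 Rnf145 (0.92) and Cstb (0.91). Il18 was closest to Timm10b (0.90) and Tle3 (0.88), Cxcl10 to Cdc42ep1 (0.83) and Nsun7 (0.82), and Il1b to Igsf3 (0.83) and Cep128 (0.81). The libraries share groups, sex and the 1 outlying library, so these coefficients are a description only.

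By annotation (GENCODE M21, GRCm38) all 9 genes are protein coding. The CC genes Ccl2 (start 82035571, end 82037453) and Ccl5 (start 83525778, end 83530518) and the CXC gene Cxcl16 (start 70453983, end 70459984) lie on chromosome 11. Cxcl1 (start 90891241, end 90893115) and Cxcl10 (start 92346638, end 92348889) lie on chromosome 5, and Cxcl12 (start 117168535, end 117181367) on chromosome 6. Cx3cl1 (start 94772009, end 94782427) lies on chromosome 8, Il18 (start 50554827, end 50581840) on chromosome 9 and Il1b (start 129364570, end 129371139) on chromosome 2.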

How the data were processed

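RNA of 15 whole kidneys was read from transcript 3' ends with the strand-specific QuantSeq kit named in the labels' protocols. The tools FastQC 0.11.7, TopHat2 2.0.10, Bowtie 1.0.0, SAMtools 0.1.19, HTSeq 0.6.1 and DESeq2 and the build GRCm38 are listed in the submitters' processing notes. Annotation release and strand setting of the counting: not given in the sources used here. Values of the deposited table are a signal, gene counts over a single size factor in each library, and 100% of values were whole multiples of the library's step within 0.001. Whole reads were recovered from it.

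Genes with at least 10 normalised counts in at least 3 libraries were fitted on log2(value + 1) with limma 3.58.1 (R 4.3.3, mean-variance trend, group terms only), adjusted by Benjamini-Hochberg and called at adjusted p under 0.05. Fold changes are on that scale, which understates changes of genes with few reads. The labelled sex was not a term because it went against Xist and Y-linked RNA. Alternatives fitted the whole reads with edgeR 4.0.16 or DESeq2 1.42.0, or used labelled sex, the Y share, the title series, other filters, pseudocounts and scaling, and leaving out libraries. Before use, the fit was tested on simulated data. From each related list the 3 genes of smallest p in each folic acid comparison, with a mean of at least 10, are named, except 1 gene that is not reported here, and for each tested gene the 2 most alike with a mean of at least 20. The genes and lists were chosen with earlier results of these data known. The labels describe separate kidneys, and p-values measure only the spread between them. Intervals of read sums cover counting error only.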

Additional observations from a re-analysis of the deposited data

Results flagged for a closer look

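The effect of folic acid on Il18 differed between the genotypes by log2 2.17 (limma adjusted p = 0.0122). All 3 WT folic acid libraries lay under the WT vehicle mean and all 4 G3 folic acid libraries over the G3 vehicle mean. The G3 groups overlapped, because G3 vehicle 4, at 15.0, lay within the G3 folic acid range. The call was lost with labelled sex (limma adjusted p = 0.0588), the Y share (0.9997) or the title series as a term. A check for single outlying libraries left out WT folic acid (n = 3), so WT folic acid 1 could not be flagged. Single libraries lay far from the others of their group in 5 of 27 groups of 4 examined, where chance flags about 1 in 20 groups. That rate does not hold for Ccl2, where the reads of a single library decide the gap. These were Ccl5 at 33.6 in G3 vehicle 1 (the others 15.6 to 17.0) and at 7.92 in WT vehicle 1 (the others 10.99 to 11.5). Il18 was 21.8 in G3 folic acid 1, while libraries 2, 3 and 4 of that group had 14.1 to 15.0. Cxcl10 was 10.6 in WT vehicle 3, against 4.74 to 5.65 in the other WT vehicle libraries. Ccl2 was 2.26 in WT vehicle 1, which is 2 reads, and had none in the other WT vehicle libraries.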

How the results depend on the processing

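No paired analysis was possible because the replicate numbers follow the accession order and pair no libraries. Of the refitted values of the 7 tested genes, 843 kept their direction and their side of the threshold, 38 turned in sign, 18 lost a call and 11 gained one; where no setting below shows it, the cause was not tested. In G3, 0 genes of the 7 were called after folic acid, 1 with DESeq2, 1 with the Y share without WT folic acid 1, and 0 to 2 when each library was left out in turn. In WT, 1 was called, 2 with edgeR, 2 with DESeq2, 0 with the Y share, 0 with the title series, 0 with the Y share without the mixed libraries, 0 with the Y share without WT folic acid 1, and 1 to 2 with a library left out. In G3 against WT after folic acid, 1 was called, 0 with the Y share, 0 with the title series, 0 with the Y share without the mixed libraries, and 0 to 2 with a library left out. For the difference between effects, 1 was called, and 0 with labelled sex, the Y share, the title series and both added fits. The fits with the Y share without the 2 mixed libraries or without WT folic acid 1 were chosen after seeing the data. Over all genes, leaving out a library moved the calls after folic acid in G3 between 3 (without G3 vehicle 2) and 364 (without WT folic acid 1), where 40 were called with all libraries, and in WT between 99 (without WT vehicle 4) and 1309 (without WT vehicle 2), where 741 were called. G3 against WT after folic acid gave 27 (without WT folic acid 2) to 615 (without WT folic acid 1) around 337. G3 against WT after vehicle gave 83 (without WT vehicle 4) to 686 (without WT vehicle 2) around 425, and the difference between effects 260 (without WT folic acid 3) to 928 (without WT vehicle 2) around 560. In the order G3, WT, G3 against WT after folic acid and after vehicle, DESeq2 called 387, 1257, 778 and 787 genes; the lowest counts were 0 with the title series in G3 and in G3 against WT after folic acid, 0 with the Y share without WT folic acid 1 in WT, 1 with the Y share after vehicle and 0 with the Y share without the mixed libraries for the difference between effects, which without those libraries alone had 959. Signs turned as follows, in log2. After folic acid in WT, Ccl5 was -0.46 with the Y share without WT folic acid 1 and -0.27 to 1.14 with a library left out, and Cxcl12 was -0.030 with the Y share without the mixed libraries. In the same comparison Cx3cl1 was 0.29 with the Y share, 0.016 with the title series, 0.081 with the Y share without WT folic acid 1 and -0.31 to 0.034 with a library left out, and Il1b was 0.022 with the title series and -0.42 to 0.022 with a library left out. In G3 against WT after folic acid, Cxcl12 was -0.069 with labelled sex, -0.016 with the Y share, -0.10 with edgeR, -0.11 with DESeq2 and -0.21 to 0.45 with a library left out, and Il1b was -0.20 with the title series. After vehicle, Cxcl12 was -0.46 with the Y share without the mixed libraries, and Cx3cl1 was 0.068 with labelled sex, 0.38 with the Y share, 0.37 with the Y share without WT folic acid 1 and -0.17 to 0.10 with a library left out. For the difference between effects, Cxcl12 was 0.78 and 0.11 in the added fits and -0.57 to 0.17 with a library left out, Cxcl10 was -0.059 to 0.42 with a library left out, and Cxcl16 was -0.066 with labelled sex, -0.064 without the mixed libraries, -0.066 with the title series, -0.18 with the Y share without the mixed libraries and -0.13 to 0.41 with a library left out. Il18 in WT stayed called with each library left out (limma adjusted p 0.00989 to 0.0492), as did its difference between effects (0.00919 to 0.0405). Depth is low for Ccl2 (29 reads in all), Cxcl1 (75), Il1b (178), Cxcl10 (197) and Il18 (213).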
